A study of Mus musculus with 20 samples.

Results

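The core circadian clock genes are the transcription factors and feedback regulators that give nearly every mammalian cell a daily rhythm. The list held 10 genes: Arntl (also called Bmal1), Clock, Per1, Per2, Per3, Cry1, Cry2, Nr1d1, Nr1d2 and Dbp. They were found by gene symbol in the platform annotation, which named 9 of the 10. Cry2 was not named there and is not analysed here. The 9 genes stood among 10843 named genes and 21643 features in all. Each was measured by 1 probe except Nr1d2, which had 2 probes that were averaged.

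Liver RNA came from 20 C57BL/6J mice, 1 array per animal, bred so that Sry, the testis-determining gene, is missing from the Y chromosome (written Y-) and sits on an autosome as a transgene instead. The 4 groups of 5 animals were XX Sry and XY-Sry (gonadal males, with the transgene) and XX and XY- (gonadal females, without it). All animals ate chow with 4% fat, had their gonads removed at 8 weeks and fasted for 12 h before death at 12 weeks, so no group had gonads when liver was taken. Every liver (Cy5) was hybridised against a common pool of chow-fed C57BL/6J liver (Cy3). Values below are log2 ratios of liver over pool: 0 is the level of the pool and 1 is a doubling. They compare 1 gene between livers and say nothing of the level of 1 gene against another, or of the cell types in a liver. Replicates are named by the animal numbers of the labels, which all differ. The hour of death was not given in the sources used here. In whole liver, fewer cells of a type and less RNA per cell cannot be told apart.

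In the clock, ARNTL and CLOCK proteins pair and activate genes through E-box elements in their promoters. Among those genes are the Per and Cry genes, whose proteins repress the pair, and Nr1d1 and Nr1d2, which encode the nuclear receptors REV-ERB alpha and beta. The REV-ERB proteins repress Arntl, and also Cry1 and Nfil3, through ROR response elements. Dbp, another E-box gene, encodes an activator that binds D-box elements. In mouse liver, Arntl RNA is therefore high when Nr1d1 and Dbp RNA are low, while Cry1 RNA peaks later than that of the other E-box genes. Arntl and Clock are called the activator limb here, and the other members the opposite limb.

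The promoter windows below belong to the 4 genes whose levels varied most closely together across animals. They run from 250 bases before the annotated start to 50 bases after it, from RefSeq on GRCm38.p6, 5′ to 3′ on the gene's strand. Capitals mark matches, on either strand, to the E-box CACGTG, the E-prime box CACGTT or the ROR core motif AGGTCA.
Arntl, chr7:113207261-113207560, strand +: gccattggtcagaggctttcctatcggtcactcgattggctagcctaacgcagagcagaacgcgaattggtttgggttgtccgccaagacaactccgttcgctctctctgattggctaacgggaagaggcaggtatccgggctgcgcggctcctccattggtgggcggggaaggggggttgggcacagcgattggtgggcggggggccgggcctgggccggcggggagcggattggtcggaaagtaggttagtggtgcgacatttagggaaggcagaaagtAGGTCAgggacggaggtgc
Cry1, chr10:85185005-85185304, strand -: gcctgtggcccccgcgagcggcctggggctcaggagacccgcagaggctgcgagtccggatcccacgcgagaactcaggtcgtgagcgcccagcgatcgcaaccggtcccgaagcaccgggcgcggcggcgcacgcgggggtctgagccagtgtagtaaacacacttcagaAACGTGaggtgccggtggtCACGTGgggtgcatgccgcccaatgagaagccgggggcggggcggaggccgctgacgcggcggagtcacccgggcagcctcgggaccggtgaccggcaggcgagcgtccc
Nr1d1, chr11:98775328-98775627, strand -: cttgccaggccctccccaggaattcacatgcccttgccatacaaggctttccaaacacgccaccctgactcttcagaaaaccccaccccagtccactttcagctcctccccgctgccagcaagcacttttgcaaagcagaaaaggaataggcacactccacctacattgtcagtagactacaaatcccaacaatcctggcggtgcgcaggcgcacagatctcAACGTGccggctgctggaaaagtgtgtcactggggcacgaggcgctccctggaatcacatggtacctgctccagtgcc
Nr1d2, chr14:18239057-18239356, strand -: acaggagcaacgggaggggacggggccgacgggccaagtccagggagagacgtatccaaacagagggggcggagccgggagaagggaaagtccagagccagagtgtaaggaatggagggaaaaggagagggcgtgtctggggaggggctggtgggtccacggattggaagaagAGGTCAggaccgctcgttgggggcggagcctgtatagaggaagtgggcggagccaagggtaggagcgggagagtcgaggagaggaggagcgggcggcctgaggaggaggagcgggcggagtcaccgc
The Arntl window, 1 of 2 for that gene, held a ROR core motif 31 bases after the start, and the other Arntl window held no match. The Cry1 window held an E-box at -60 and an E-prime box at -79. The Nr1d1 window held an E-prime box at -28, and the Nr1d2 window a ROR core motif at -77. Windows were held for 9 of the 10 list members, 13 windows in all. Elsewhere in the list, a Per1 window held an E-box at -166 and a ROR core motif at -137, and the Per3 window held D-boxes (TTATGTAA) at -205 and -158. Cry2 had an E-prime box at -166, a Clock window had a ROR core motif at -119, and the Dbp window held no match. The remaining windows of Clock and Per1 held no match either. Among all 32851 windows of the table, 7.15% held the E-box, 4.68% the E-prime box, 1.06% a D-box (TTATGTAA or TTACGTAA) and 16.3% the ROR core motif. A match is a description of the letters in the window and no evidence of binding.

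Some facts of the arrays bear on what follows. The SD of log2 ratios over an array's probes was 0.175 to 0.341, and it was above 0.3 on 4 arrays: XX 2, XX 6, XY- 3 and XY- 12, all gonadal females with low animal numbers. Array pairs correlated from -0.54 (XX Sry 38 with XY- 12) to 0.68, and 9 of 190 pairs were below -0.3. The direction was kept as liver over pool because the labels state the dyes and the Y-linked gene Eif2s3y lay at 0.57 or above in 9 XY libraries, against -2.46 or below in all XX libraries. The tenth, the library labelled XY- 30, stood at -3.90 and thus went against its label. The clock genes called between groups or with animal number, the pairs over all animals and the members of other lists called are therefore also given without it.

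The question for the groups was whether the Sry transgene, with the gonads the animals had until surgery, or the sex chromosomes shifted the level of the clock genes. None of the 9 clock genes passed the test in any comparison, whereas several of them varied widely within a group. Values are given in ascending animal number: 9, 18, 31, 32 and 38 for XX Sry, 5, 14, 19, 20 and 27 for XY-Sry, 2, 6, 21, 29 and 35 for XX, and 3, 12, 22, 24 and 30 for XY-. The log2 ratio of Arntl was 0.68, -1.14, -0.19, -0.45 and -0.21 in XX Sry males, and 0.73, 0.31, -0.76, -0.31 and 0.21 in XY-Sry males. Arntl was 0.90, 0.76, -0.998, -0.027 and -1.50 in XX females, and 0.60, -0.077, -0.74, 0.21 and -0.33 in XY- females. Arntl, the partner of CLOCK, thus ranged from -1.50 to 0.90 inside the XX group alone, and all 4 groups overlapped. In gonadal males, Clock was 0.043, 0.045, 0.02, 0.11 and 0.037 in XX Sry livers, and 0.094, 0.12, 0.025, -0.081 and -0.024 in XY-Sry livers. In gonadal females, it was -0.094, 0.02, 0.0047, -0.036 and -0.12 in XX livers, and 0.19, -0.072, -0.056, -0.11 and 0.052 in XY- livers. Clock therefore stayed within 0.2 of the pool in every liver.

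For Per2, the log2 ratio was -0.49, 0.051, 0.27, 0.22 and 0.40 in XX Sry males, and -0.17, -0.28, 0.012, 0.45 and -0.34 in XY-Sry males. The gonadal females had Per2 at -0.20, -0.31, 0.082, 0.14 and 0.63 in XX livers, and at 0.0017, -0.70, 0.35, -1.11 and 0.53 in XY- livers. Per2, a core repressor, was lowest in XY- 24 and XY- 12 and highest in XX 35, and the groups overlapped. Per1 ranged from -0.10 to 0.26 in gonadal males and from -0.12 to 0.10 in gonadal females. Per3 ranged from -0.047 to 0.053 in gonadal males and from -0.18 to 0.23 in gonadal females. Both genes stayed close to the pool. In gonadal males, the log2 ratio of Cry1 was 0.18, -0.62, -0.31, -0.31 and -0.16 in XX Sry livers, and 0.61, 0.43, -0.45, -0.17 and -0.38 in XY-Sry livers. Among gonadal females, Cry1 was 0.89, 0.97, -0.72, -0.38 and -0.71 in XX livers, and 0.68, 0.12, -0.71, -0.48 and -0.56 in XY- livers. Cry1, the late repressor, was above the pool in 7 livers and at -0.16 or below in the other 13, with both kinds in each group.

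The log2 ratio of Nr1d1 was -0.86, 0.62, -0.12, 0.082 and -0.0026 in XX Sry males, and -0.70, -0.57, 0.63, 0.20 and 0.77 in XY-Sry males. Nr1d1 was -1.83, -2.02, 0.40, 0.067 and 0.63 in XX females, and -2.37, -1.41, 0.45, 0.95 and -0.20 in XY- females. Nr1d1, the repressor of Arntl, had the widest range of the 9 genes, from -2.37 in XY- 3 to 0.95 in XY- 24, both of 1 group. For Nr1d2, the log2 ratio was -0.49, 0.17, 0.13, 0.069 and 0.013 in XX Sry males, and -0.30, -0.16, 0.31, 0.025 and 0.34 in XY-Sry males. The gonadal females had Nr1d2 at -0.64, -0.72, 0.087, 0.092 and 0.39 in XX livers, and at -0.65, -0.42, 0.25, 0.044 and 0.44 in XY- livers. Nr1d2, its paralog, was below the pool in the same 7 livers in which Cry1 was above it. In gonadal males, the log2 ratio of Dbp was -0.056, 0.12, 0.17, 0.18 and 0.15 in XX Sry livers, and 0.082, -0.13, 0.038, 0.11 and -0.075 in XY-Sry livers. Among gonadal females, Dbp was -0.23, -0.21, 0.068, -0.014 and 0.26 in XX livers, and -0.049, -0.20, 0.12, 0.08 and 0.40 in XY- livers. Dbp, the output activator, ranged from -0.23 to 0.40, both in gonadal females.

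**Figure D1:**
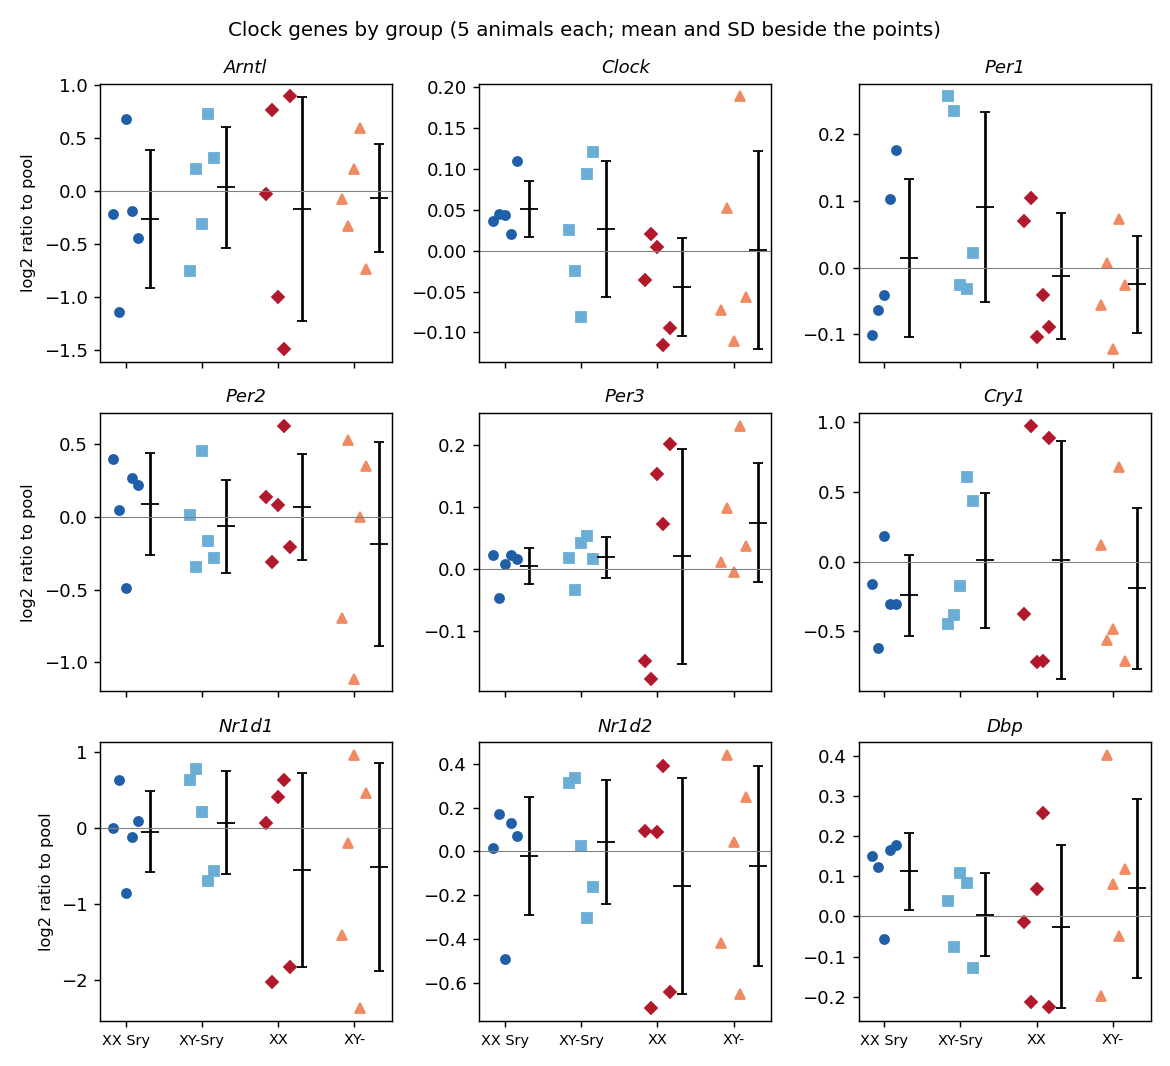
Log2 ratio to the pool (y axis) of the 9 measured clock genes in XX Sry, XY-Sry, XX and XY- livers, 1 point per animal, with the mean and SD of 5 animals beside the points. The y axes differ between panels. The groups overlap in every panel, and Nr1d1 spans -2.37 to 0.95 while Clock spans -0.12 to 0.19.

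In gonadal males against gonadal females, 0 of the 9 clock genes passed limma's test (adjusted p under 0.05 over all features), where 3.74% of features did (1.46% higher and 2.28% lower). The largest difference was that of Nr1d1, which averaged 0.0048 ± 0.58 in gonadal males and -0.53 ± 1.2 in gonadal females (SD, n = 10 each). Its difference was 0.54 ± 0.43 (SE) with a 95% interval of -0.35 to 1.43 and an adjusted p of 0.584. Arntl differed by 0.0059 ± 0.30 (interval -0.63 to 0.64, adjusted p = 0.995). The interval was -0.54 to 0.48 for Cry1, -0.33 to 0.47 for Per2 and -0.22 to 0.46 for Nr1d2. It was narrower for the genes of little spread, at -0.12 to 0.19 for Dbp, -0.036 to 0.18 for Per1, -0.14 to 0.065 for Per3 and -0.025 to 0.15 for Clock. The lowest unadjusted p of the 9 genes was 0.155, that of Clock. Without the 4 wide arrays, all of gonadal females, the differences moved. They were then -0.38 for Nr1d1, 0.45 for Arntl and 0.48 for Cry1 (limma adjusted p = 0.512, 0.474 and 0.123). The Nr1d1 difference thus turned its sign, and none of these passed.

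In XX against XY complement, 0 of 9 passed, where 0.0277% of features did. Arntl differed by -0.20 ± 0.30 (SE), Per2 by 0.20 ± 0.19 and Nr1d1 by -0.080 ± 0.43, and the lowest unadjusted p was 0.303 (Per2). In the interaction of Sry and sex chromosomes, 0 of 9 passed, as did 0% of all features, of which 563 had an unadjusted p under 0.05. The interaction was -0.45 ± 0.49 for Cry1, with an interval of -1.47 to 0.57, and 0.20 ± 0.15 for Dbp, which had the lowest unadjusted p (0.176). Within 1 factor level, 0 of 9 passed in XX Sry against XX (0.665% of features), in XY-Sry against XY- (0.157%), in XX Sry against XY-Sry (0.00462%) and in XX against XY- (0%). Without the library labelled XY- 30 the count stayed at 0 of 9 in every comparison. A p that misses the threshold does not show that the groups have like levels, and for Nr1d1, Arntl and Cry1 the intervals are wide.

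The spread among animals of a group separated the members. The SD within groups was 1.03 for Nr1d1, 0.73 for Arntl, 0.59 for Cry1, 0.46 for Per2 and 0.39 for Nr1d2, against a median of 0.154 over all features. Only 0.245% of features had a larger SD than Nr1d1, 0.656% than Arntl, 1.52% than Cry1, 3.80% than Per2 and 6.52% than Nr1d2. Dbp (0.17) lay near the median, and Per1 (0.11), Per3 (0.10) and Clock (0.081) lay below it. Without the 4 arrays of wide spread the SD was 0.56 for Nr1d1, 0.34 for Cry1, 0.25 for Nr1d2, 0.62 for Arntl and 0.47 for Per2. The median of all features was then 0.132.

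Across the 20 animals, Arntl moved against Nr1d1, Nr1d2, Dbp and Per2 and together with Cry1. Of the 36 pairs of measured clock genes, 12 passed a two-sided permutation test of Pearson's r with 100000 resamples, Benjamini-Hochberg adjusted over the 36 pairs. Of the 14 pairs of opposite limbs, 5 passed, 4 of them negative. Over all features fitted on Arntl within groups with limma, 1.45% passed, and 3 of the 8 other clock genes did: Cry1 upward (0.716% of features) and Nr1d1 and Nr1d2 downward (0.735%). That fit called 0 features (0%) once the 4 wide arrays were left out. All arrays share the pool, so its channel is common to the points of every pair.

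Arntl and Nr1d2 gave r = -0.77 (adjusted p = 3.6e-04, permutation; Spearman's rho -0.76, adjusted p = 7.2e-04). Only 0.0878% of features lay as far down in their correlation with Arntl. Arntl and Nr1d1 gave r = -0.70 (adjusted p = 0.0031, permutation; rho -0.66, adjusted p = 0.00872), a distance that 0.476% of features reached. Over the pooled animals, both REV-ERB genes thus tended to be lower where Arntl was higher. Single livers went the other way: Arntl was 0.21 in XY- 24 and in XY-Sry 27, with Nr1d1 at 0.95 and 0.77. Arntl and Dbp gave r = -0.63 (adjusted p = 0.0099, permutation; rho -0.69), and Arntl and Per2 r = -0.56 (adjusted p = 0.0282, permutation; rho -0.65). More features reached these distances, 1.29% that of Dbp and 2.85% that of Per2. In the limma fit on Arntl over all features, Dbp (adjusted p = 0.104) and Per2 (0.175) did not pass. The Per2 pair did not pass without XX Sry 9 or without XX 35, with a highest adjusted p of 0.115. Arntl and Cry1 gave r = 0.85 (adjusted p = 9.0e-05, permutation; rho 0.85), a positive pair across limbs.

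No pair with Clock passed. Its r with Nr1d1 was -0.35 (adjusted p = 0.318, permutation), and its r with Arntl, in the same limb, was 0.25 (adjusted p = 0.559). The pairs of Arntl with Per1 (r = 0.040) and Per3 (r = -0.011) did not pass either. These genes had less spread than most features, as given above.

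Within the opposite limb, Cry1 ran against Nr1d1, Nr1d2 and Dbp. Its r was -0.91 with Nr1d2 and -0.89 with Nr1d1 (adjusted p = 9.0e-05 each, from the smallest p that 100000 permutations can give, 1e-05), and -0.70 with Dbp (adjusted p = 0.00288), while its r of -0.37 with Per2, 0.089 with Per3 and 0.0056 with Per1 did not pass. Nr1d1 and Nr1d2, the paralogs, gave r = 0.90 (adjusted p = 9.0e-05), and no feature other than Nr1d2 lay as high with Nr1d1. Dbp gave r = 0.75 with Nr1d2 (adjusted p = 0.00102), 0.65 with Per2 (adjusted p = 0.00716) and 0.60 with Nr1d1 (adjusted p = 0.0164, Spearman's rho 0.43 with adjusted p = 0.140). Of all features, 1.42% lay as high as Dbp with Nr1d2, 0.337% with Per2 and 5.22% with Nr1d1, and 1.62% lay as low with Cry1. The pairs of Arntl with Cry1, Nr1d1, Nr1d2, Dbp and Per2, and those of Cry1 with Nr1d1, Nr1d2 and Dbp, kept their sign within both gonadal types. In gonadal males alone Arntl gave r = 0.84 with Cry1, -0.76 with Nr1d1 and -0.72 with Nr1d2, and in gonadal females alone 0.86, -0.74 and -0.82 (n = 10 each). Of the 14 opposite-limb pairs, 1 passed among the 10 gonadal males and 2 among the 10 gonadal females.

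**Figure D2:**
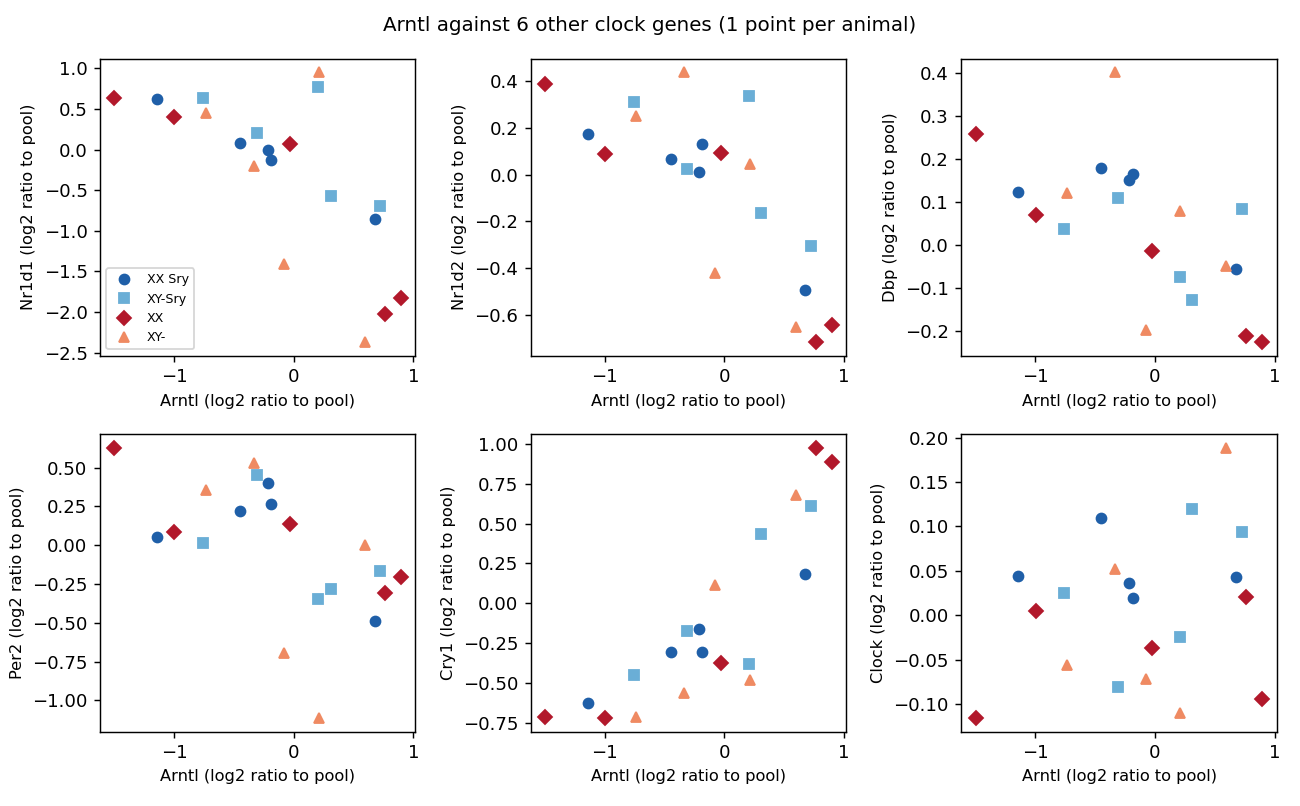
Log2 ratio to the pool of Arntl (x axis) against Nr1d1, Nr1d2, Dbp, Per2, Cry1 and Clock (y axes), 1 point per animal, with shape and colour by group. Points fall from left to right for Nr1d1, Nr1d2, Dbp and Per2, climb for Cry1 (r = 0.85) and show no such order for Clock (r = 0.25).

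The pairs that passed changed when animal number was taken into account, as given further below, and when the arrays of wide spread were left out. Without the 4 wide arrays 3 opposite-limb pairs passed (n = 16): Arntl with Cry1 (r = 0.80), Arntl with Nr1d2 (r = -0.69) and Clock with Nr1d1 (r = -0.66, adjusted p = 0.0397, permutation). Arntl with Nr1d1 was then at -0.61 and with Per2 at -0.60 (adjusted p = 0.0558 each), and with Dbp at -0.50 (adjusted p = 0.156). Without the 2 animals farthest from the median of the first gene, Arntl gave r = 0.83 with Cry1, -0.71 with Nr1d2 and -0.65 with Nr1d1, all past the threshold, and -0.50 with Dbp and -0.48 with Per2, neither past it. Without the library labelled XY- 30, 12 of 36 and 5 of 14 pairs passed, as with it.

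The animal number is the only order that the labels give. Nr1d1 was -1.83, -2.37, -0.70, -2.02, -0.86, -1.41 and -0.57 in animals 2, 3, 5, 6, 9, 12 and 14, and lay between -0.20 and 0.95 in the 13 animals numbered 18 to 38. Cry1 lay between 0.12 and 0.97 in animals 2 to 14 and between -0.72 and -0.16 in animals 18 to 38. Nr1d2 lay between -0.72 and -0.16 in animals 2 to 14 and between 0.013 and 0.44 in animals 18 to 38. The spans did not overlap for these 3 genes. Arntl (-0.077 to 0.90 against -1.50 to 0.21), Per2 (-0.70 to 0.0017 against -1.11 to 0.63) and Dbp (-0.23 to 0.082 against -0.075 to 0.40) overlapped. The boundary between 14 and 18 was chosen after these values were seen, so no test compares the spans. The share of all features whose spans do not overlap at this boundary was not computed. The separation therefore cannot be read as particular to the clock genes. Low-numbered animals made up 1 of 5 in XX Sry and 2 of 5 in each other group.

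**Figure D3:**
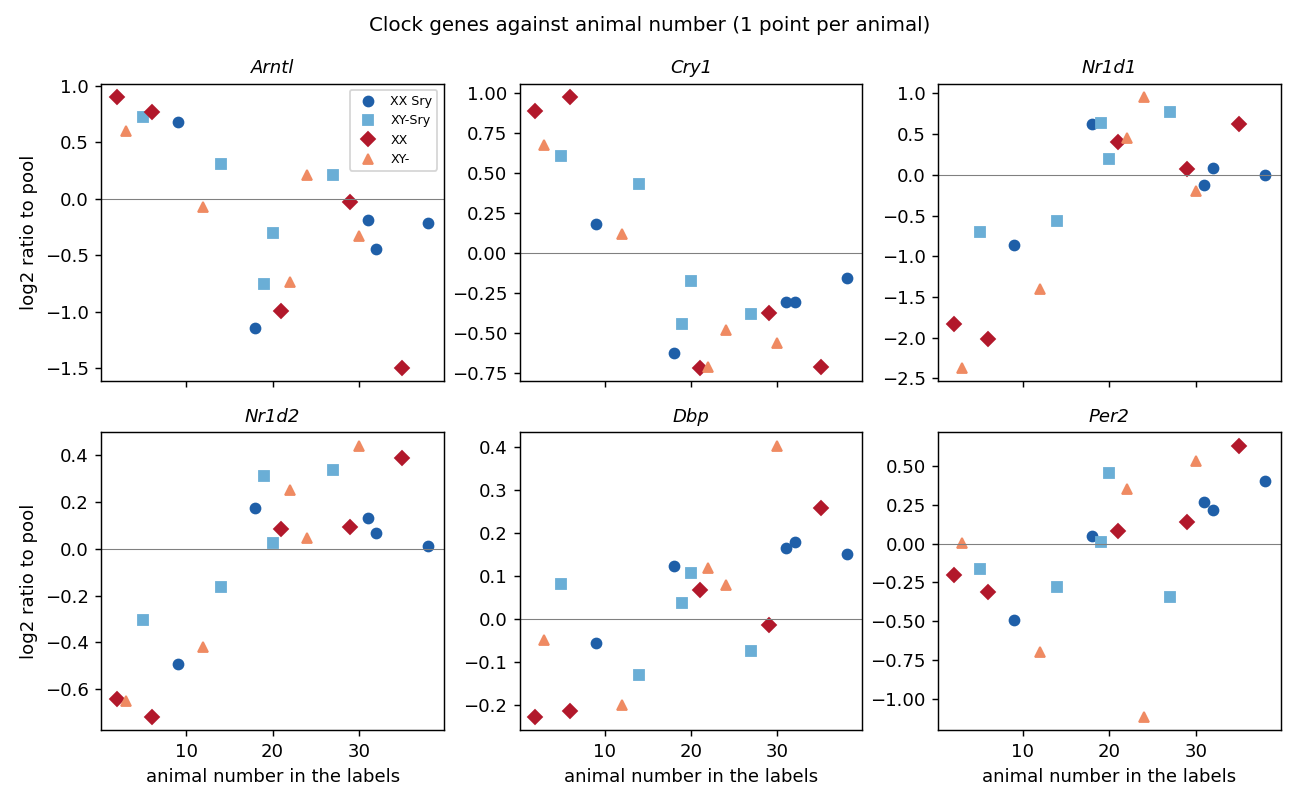
Log2 ratio to the pool (y axis) of Arntl, Cry1, Nr1d1, Nr1d2, Dbp and Per2 against the animal number in the labels (x axis), 1 point per animal, with shape and colour by group. Animals 2 to 14 lie above animals 18 to 38 for Cry1 and below them for Nr1d1 and Nr1d2. The boundary between these spans was chosen after the values were seen.

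With animal number as a slope in limma, next to a mean per group, 5 of the 9 clock genes passed, where 9.56% of features did. Nr1d2 rose by 0.30 ± 0.040 (SE) log2 per 10 numbers (adjusted p = 3.0e-04), Nr1d1 by 0.70 ± 0.13 (adjusted p = 0.00326) and Dbp by 0.10 ± 0.027 (adjusted p = 0.0242), where 5.12% of features rose. Cry1 fell by 0.41 ± 0.075 (adjusted p = 0.00257) and Arntl by 0.41 ± 0.12 (adjusted p = 0.0355), where 4.43% of features fell. After quantile normalization, 7.37% of features passed and Arntl did not (adjusted p = 0.0559). Per2 had a slope of 0.20 ± 0.084 (adjusted p = 0.160), and Clock, Per1 and Per3 had slopes of -0.025, 0.015 and -0.017. Leaving out each animal in turn, Cry1, Nr1d1 and Nr1d2 passed in 20 of 20 fits, Dbp in 16 and Arntl in 14. Without the library labelled XY- 30, 4 of 9 passed and Dbp did not. Pearson's r with animal number over 20 animals was 0.82 for Nr1d2 (Spearman's rho 0.70), -0.78 for Cry1 (rho -0.62), 0.73 for Nr1d1 (rho 0.58), 0.70 for Dbp (rho 0.73), -0.64 for Arntl (rho -0.62) and 0.50 for Per2 (rho 0.62). Each passed a permutation test that pooled the groups and was adjusted over the 9 genes only, with a highest adjusted p of 0.0379 (Per2). The share of all features that would pass this test was not computed. Without the animals numbered 2 and 38, r was 0.85 for Nr1d2, -0.81 for Cry1, 0.73 for Nr1d1, 0.65 for Dbp, -0.63 for Arntl and 0.46 for Per2 (permutation p = 0.0553).

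The slope did not hold within the higher-numbered animals. In animals 18 to 38 alone, 0 of 9 clock genes passed, as did 0% of all features, and the slopes of Arntl (0.32), Cry1 (0.14) and Nr1d1 (-0.21) had the opposite sign. In animals 2 to 14 alone (n = 7), r with animal number, given as a description, was -0.78 for Arntl, -0.72 for Cry1, 0.70 for Nr1d2, 0.63 for Nr1d1, -0.13 for Dbp and -0.67 for Per2. It had the sign of the pooled value for the first 4 of these and the opposite sign for Dbp and Per2. Without the 4 arrays of wide spread, which are all low-numbered animals, 0 of 9 passed, where 2.27% of features did. Nr1d2 then had a slope of 0.20 ± 0.054 (adjusted p = 0.0643), Nr1d1 of 0.28 ± 0.15 and Cry1 of -0.18 ± 0.091. The SD of the array itself went with Nr1d1 (r = -0.74, adjusted p = 0.00279, permutation; Spearman's rho -0.41, adjusted p = 0.469), Nr1d2 (r = -0.58, rho -0.23) and Cry1 (r = 0.53, rho 0.25) over 20 animals. By rank none of the 3 passed, with an adjusted p of 0.581 for Nr1d2 and for Cry1. What part array spread had in these results was not tested.

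The pairs were therefore recomputed within each span of numbers. In animals 18 to 38 (n = 13), 0 of 36 pairs passed the adjusted permutation test. Arntl there gave r = 0.65 with Cry1 (unadjusted p = 0.0172, adjusted p = 0.310), -0.50 with Per2, -0.34 with Dbp, -0.32 with Nr1d2 and -0.16 with Nr1d1. Nr1d1 and Nr1d2 gave 0.15 there, against 0.90 over all animals. In animals 2 to 14 (n = 7), 0 of 36 pairs passed an exact permutation test. Arntl there gave r = 0.72 with Cry1, -0.49 with Nr1d2 and -0.24 with Nr1d1. Arntl gave 0.63 with Per2 and 0.18 with Dbp there, both of the opposite sign to the pooled value. As a partial correlation given animal number, 1 of the 14 opposite-limb pairs passed, Arntl with Cry1 (r = 0.73, adjusted p = 0.00207, permutation), with Arntl and Nr1d2 at -0.56 (adjusted p = 0.0765). Cry1 with Nr1d1 (-0.74), Cry1 with Nr1d2 (-0.75) and Nr1d1 with Nr1d2 (0.77) passed too. The partial correlation removes only a straight line on animal number, so a step between the spans can remain in it. In animals 18 to 38 these last pairs gave -0.42, -0.53 and 0.15. In animals 2 to 14 they gave -0.56, -0.56 and 0.89, and none passed in either span. The negative correlation between limbs that the pooled animals gave was thus not shown within either span at these sample sizes. The boundary was set where Nr1d1, Nr1d2 and Cry1 do not overlap, so each span holds a narrower range of these genes. A narrower range by itself lowers r. These tests therefore cannot decide whether the limbs run against each other within a span.

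**Figure D4:**
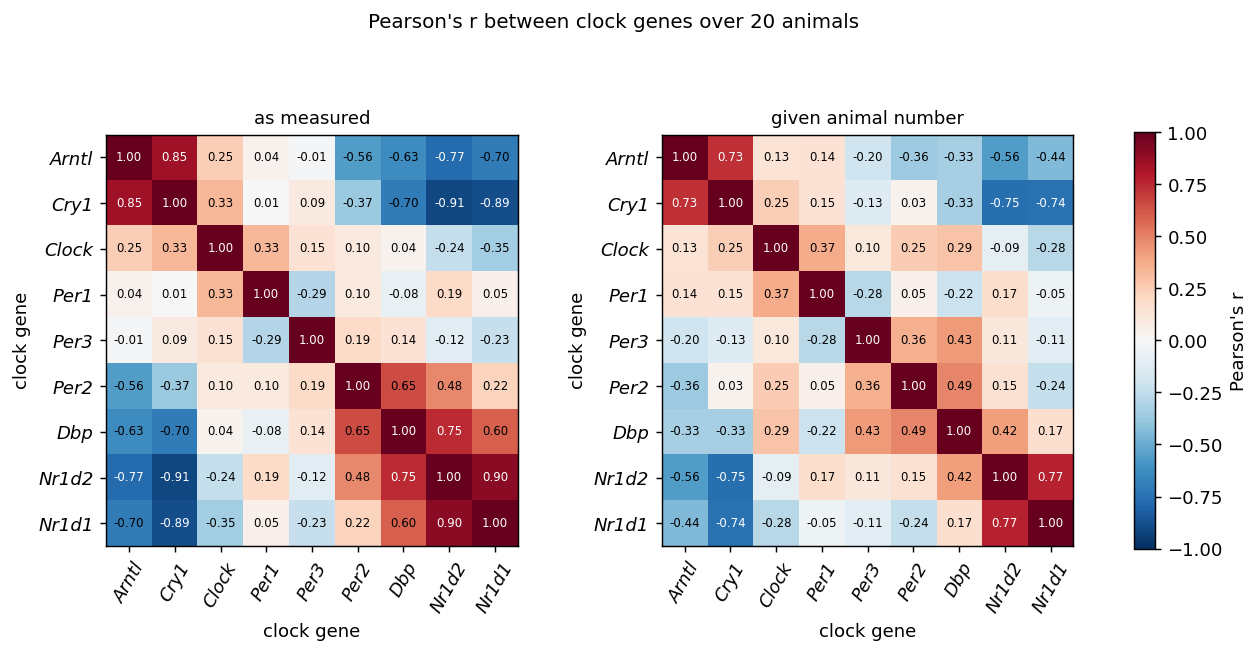
Pearson's r between the 9 measured clock genes over 20 animals (colour scale and printed value), as measured on the left and as a partial correlation given animal number on the right. The partial correlation removes only a straight line on animal number. Arntl and Cry1 stand together at 0.85 and 0.73, and the r of Arntl with Nr1d1 is -0.70 on the left and -0.44 on the right.

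The 2 probes of Nr1d2 disagreed. They correlated at r = -0.045 over 20 animals, with an SD of 0.72 for the first and 0.14 for the second. The first probe gave r = 0.90 with Nr1d1, -0.90 with Cry1 and -0.76 with Arntl, and its slope on animal number was 0.58 ± 0.081 (adjusted p = 3.7e-04). The second gave r = 0.056 with Nr1d1, -0.097 with Cry1 and -0.067 with Arntl, and a slope of 0.013 ± 0.029. It correlated with Per3 (r = 0.70, adjusted p = 0.00176, permutation). All values given here for Nr1d2 as a gene are the mean of both probes and so follow the first. The part of the transcript that each probe covers is not given in the sources used here.

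Other genes of the clock were read from lists. Of 22 further clock regulators, 16 were measured and 0 passed in gonadal males against females (3.74% of all features), with a median difference of -0.023 against 0.0075 over all features. Nfil3, the repressor that competes with DBP at D-boxes, and Csnk1e, a kinase of the PER proteins, fell with animal number, by 0.69 ± 0.11 per 10 numbers (adjusted p = 8.6e-04) and by 0.14 ± 0.040 (adjusted p = 0.0380). Hlf, a relative of Dbp, fell by 0.14 ± 0.044 (adjusted p = 0.0448), and the other 13 regulators did not pass. Thus 3 of 16 fell, where 4.43% of all features did. Without the library labelled XY- 30, Csnk1e (adjusted p = 0.0815) and Hlf (0.0703) did not pass, while Csnk1d passed in the other direction. Csnk1d rose by 0.21 per 10 numbers in that fit (adjusted p = 0.0242). Npas2, the paralog of Clock, had a slope of -0.069 ± 0.024 (adjusted p = 0.0801). Of 18 clock output genes, 13 were measured, and 1 passed in gonadal males against females: Mtss1, an actin-binding protein, was higher by 0.41 ± 0.085 (adjusted p = 0.0122, and 0.0165 without the library labelled XY- 30), where 3.74% of all features passed. On animal number, 2 outputs rose, Gys2, the liver glycogen synthase (0.44 ± 0.078, adjusted p = 0.00186), and Noct, the deadenylase-like Nocturnin (0.26 ± 0.077, adjusted p = 0.0386). Mtss1 (-0.12) and Tsc22d3, a glucocorticoid target (-0.23), fell. Over all features 5.12% rose and 4.43% fell, and without the library labelled XY- 30, Noct (adjusted p = 0.0795) and Tsc22d3 (0.0756) did not pass. Without the wide arrays, none of these 16 regulators passed on animal number, and 1 of the 13 outputs did: Ppara, a nuclear receptor of fasting metabolism, fell by 0.41 per 10 numbers (adjusted p = 0.0375).

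The other lists cover fasting and glucocorticoid genes, temperature and heat shock genes, immediate early genes and markers of cell types. Of 15 fasting and glucocorticoid genes, 13 were measured and 3 passed in gonadal males against females, all higher: the phosphatidate phosphatase Lpin1 by 1.67 ± 0.22, the glucocorticoid receptor co-chaperone Fkbp5 by 1.21 ± 0.23 and the insulin receptor substrate Irs2 by 0.84 ± 0.21 (adjusted p = 4.96e-04, 0.00603 and 0.0357), where 1.46% of all features were higher and 2.28% lower. Without the wide arrays Irs2 did not pass (adjusted p = 0.126). On animal number, Cpt1a, which carries fatty acids into mitochondria, rose by 0.41 ± 0.085 per 10 numbers, the coactivator Ppargc1a rose by 0.31 ± 0.081 and Fkbp5 fell by 0.31 ± 0.087, 3 of the 13, where 9.56% of all features passed. Without the wide arrays Cpt1a had a slope of 0.088 (adjusted p = 0.349) and Ppargc1a did not pass (0.0720), while Fkbp5 (-0.50, 0.0141) and Lpin1 (-0.45, 0.0398) did. Without the library labelled XY- 30, Fkbp5 did not pass (adjusted p = 0.0556). Of 7 measured temperature and heat shock genes, 2 rose with animal number, where 5.12% of all features did, both RNA-binding proteins induced by mild cold. Rbm3 rose by 0.49 ± 0.088 (adjusted p = 0.00213, and 0.0452 without the wide arrays) and Cirbp by 0.36 ± 0.072 (adjusted p = 0.00467, and 0.183 without the wide arrays). The remaining 5, all heat shock genes, did not pass. Of 9 immediate early genes, 1 rose, Jun (0.34 ± 0.10, adjusted p = 0.0483), where 5.12% of all features did, and it did not pass without the wide arrays (adjusted p = 0.464) or after quantile normalization (0.168). In gonadal males against females, 0 of 7 temperature and 0 of 9 immediate early genes passed, where 3.74% of all features did. Markers of other cell types were lower in gonadal males for 3 of 7 Kupffer cell genes (Clec4f, Cd5l and Csf1r), 2 of 5 lymphocyte genes (Cd3g and Cd8a), 2 of 5 stellate cell genes (Col1a1 and Pdgfrb) and 1 of 4 erythroid genes (Hba-a1), with differences from -1.18 for Cd5l to -0.18 for Cd8a, where 2.28% of all features were lower. Without the wide arrays Cd8a (adjusted p = 0.147) and Pdgfrb (0.152) did not pass. Without the library labelled XY- 30, all of these markers passed, as did Lpin1, Fkbp5 and Irs2. The other Kupffer cell, lymphocyte, stellate cell and erythroid markers did not pass between gonadal males and females. Of them, Cd4 (0.098), Cd79a (0.016), Lrat (0.0047) and Slc4a1 (0.025) had positive differences, and the rest had negative ones. None of 4 hepatocyte, 4 endothelial or 2 cholangiocyte markers passed. On animal number, the hepatocyte gene Ttr (-0.23), the Kupffer cell gene Cd68 (-0.079) and the cholangiocyte gene Krt19 (-0.095) fell, where 4.43% of all features did, and the other markers did not pass. Without the wide arrays none of the 3 passed: Ttr had a slope of -0.20 (adjusted p = 0.129), Cd68 of -0.040 (0.530) and Krt19 of -0.0047 (0.951). Without the library labelled XY- 30, Cd68 did not pass (adjusted p = 0.0739). Of the other hepatocyte, Kupffer cell and cholangiocyte markers, Apoa1, Cd5l, Marco, Vsig4 and Epcam had positive slopes on animal number. The slopes of Apob, Serpina1a, Adgre1, Clec4f and Csf1r were negative. These lists were thus mixed in direction. The part of cell makeup in the clock values was not tested.

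The named genes whose ratios followed Arntl most closely over the 20 animals were Dnmt3b, a DNA methyltransferase (r = 0.90), Cry1 (0.85), the vasopressin receptor Avpr1a (0.84), Nfil3 (0.83) and the glycine decarboxylase Gldc (0.83). Those that ran most against it were Gys2 (-0.86), the laminin chain Lamb3 (-0.86), the carbonic anhydrase Car9 (-0.83), Ctps2, a CTP synthase (-0.81), and Fabp2, a fatty acid binding protein (-0.80). Without the wide arrays these values ranged from 0.76 (Nfil3) to 0.85 (Dnmt3b) and from -0.82 (Gys2) to -0.75 (Ctps2 and Fabp2). Nr1d2 ranked 19th and Nr1d1 103rd from the lowest of 21641 features. For Dbp, the highest were Nup153 (0.92), Atxn10 (0.89), Ech1 (0.89), Rgp1 (0.88) and Psmc3 (0.87), and the lowest Lbr (-0.88), Prdx4 (-0.85), Olfr1034 (-0.84), Elovl1 (-0.84) and Dap (-0.82). No clock gene stood among the 5 nearest to Dbp in either direction. These values describe the likeness of patterns over animals that share the pool and the order of animal numbers, and they carry no test.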

How the data were processed

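Liver RNA of 20 mice was taken up on RNeasy columns and treated with DNase before aminoallyl labelling, per the labels' protocols. The deposited values were log10 ratios for 23574 probes, made by the authors by a normalization that is not given in the sources used here. Base and direction were read from the values and the dyes. With another base all differences change by 1 shared factor and the tests do not change. The titles describe the pool as liver of 17 mice, and the design text as equal RNA shares of each sample; it cancels between groups. Values were limited at a size of 2 (29 values), 2 were missing, and no intensities were used, so the number of arrays limits the precision.

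Values were converted to log2. Probes were named through the platform annotation and the mouse gene table (GRCm38.p6), and probes of a gene were averaged, which gave 21643 features. limma 3.58.1 (R 4.3.3) fitted a mean per group with 1 spread over all 20 arrays, with eBayes and Benjamini-Hochberg adjustment over all features. The 36 pairs, and 18 relations of the 9 genes with animal number and array spread, were tested by permutation (scipy 1.17.1, numpy 2.4.6). Programs were tested on simulated data.

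The members, lists and tests were chosen with earlier results of these data known. All clock genes are named whatever their p, as are members of the other lists that passed, the 5 genes most and least like Arntl or Dbp, and a few genes chosen after their values were seen (Npas2). The spans of animal number, the slopes on animal number and on Arntl over all features, the separate Nr1d2 probes, the correlation with array spread, and the other lists without the library labelled XY- 30 or the wide arrays were added after seeing the data. Alternatives covered scaling, probes, arrays of wide spread, the library labelled XY- 30, array weights, animal number and leaving out each animal.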

Additional observations from a re-analysis of the deposited data

Results flagged for a closer look

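Among 36 sets of 5 animals (9 clock genes in 4 groups), 4 held a sample far from the others by Dixon's test, which chance alone gives for about 1 in 20 sets. All 4 were in the XX Sry group. Nr1d2 stood at -0.49 in XX Sry 9, with the nearest other animal at 0.013. Dbp stood at -0.056 in XX Sry 9, with the nearest at 0.12. Animal 9 is the only XX Sry animal numbered below 18. Clock stood at 0.11 in XX Sry 32, with the nearest at 0.045, and Per3 at -0.047 in XX Sry 18, with the nearest at 0.0088. The last pair of deviations is small on the log2 scale. The rate of 1 in 20 holds for independent sets of normally distributed values. Nr1d2 and Dbp correlated over the 20 animals (r = 0.75), and the share of sets flagged over all features was not computed.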

How the results depend on the processing

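No paired analysis was possible because the groups share no replicate number. No clock gene was called in any group comparison under any alternative run: 0 of 63 differences changed their call over 1751 alternative values, while 170 of those values differed in sign from an uncalled difference. The 809 features called for gonadal males against females became 1733 with array quality weights, and 393 to 1129 leaving out 1 animal each. The 6 features called for XX against XY became 10 with arrays divided by their spread, 0 without the wide arrays, 13 without the library labelled XY- 30, 12 with array weights, 2 with animal number as a covariate, and 2 to 13 leaving out 1 animal each. The 5 opposite-limb pairs became 3 without the wide arrays, 1 in gonadal males, 2 in gonadal females, 1 given animal number, 3 without the 2 farthest arrays, and 0 in animals 18 to 38 and 0 in animals 2 to 14 alone; they were 4 to 5 leaving out 1 animal each and 5 under the other alternatives. Of the pairs past the threshold, signs turned for Arntl with Per2 (0.63) and Arntl with Dbp (0.18) in animals 2 to 14 and for Nr1d1 with Dbp (-0.49) in animals 18 to 38. Per3 with Nr1d2 was not past the threshold with both probes averaged (r = -0.12), and it passed at 0.70 with the second Nr1d2 probe alone. On animal number, the 2068 features and 5 clock genes called became 491 and 0 without the wide arrays and 0 and 0 in animals 18 to 38, and 1265 to 2241 and 3 to 6 leaving out 1 animal each. Fewer than 5 clock genes passed without XX Sry 9, XX 2 or XX 35 (3 each), among others. On Arntl, the 314 features and 3 clock genes became 0 and 0 without the wide arrays, 113 and 2 after quantile normalization, and 74 to 466 and 2 to 3 leaving out 1 animal each. Fewer samples enter the fits without arrays; otherwise the cause was not tested. Depth is not defined for ratios, and signal over background was not used here.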
